A study of Mus musculus with 22 samples.

Results

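Transcription factors that mark progenitor cells of the neural tube were followed through wild-type and Hox-/- mouse stem cell cultures. They were Sox1, Sox3, Pax6, Pax7, Irx3, Dbx1, Olig2, Nkx2-2, Nkx6-1 and Nkx6-2. They were chosen by gene symbol and are 10 of the 55141 genes in the gastruloid tables and of the 55055 genes in the mES and endoderm tables. All 10 symbols were found. The series asks what cells without Hox function do in embryo models, and gastruloids are aggregates of mouse embryonic stem (mES) cells that form parts of an early body axis in culture.

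The neural tube is patterned along its dorsal to ventral axis by opposing signals. Sonic hedgehog, made by the notochord and floor plate, acts through Ptch1, Smo and the Gli factors from the ventral side, and BMP and Wnt signals act from the dorsal side. Progenitors read these signals as combinations of transcription factors: Sox1 and Sox3 are shared by most neural progenitors, Pax7 marks dorsal cells, Pax6, Irx3 and Dbx1 mark intermediate cells, and Nkx6-1, Nkx6-2, Olig2 and Nkx2-2 mark ventral cells. Several pairs repress each other, Olig2 and Irx3 among them, and Olig2 defines the progenitors of motor neurons. Some of these factors also act elsewhere: Nkx6-1, Nkx2-2 and Pax6 work in the pancreas, and Pax7 marks dermomyotome.

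The 22 RNA-seq libraries fall into 10 groups. Wild-type and Hox-/- mES cells (2 libraries each) were kept in serum medium that held LIF, CHIR99021 (a GSK-3 inhibitor, 3 µM) and PD0325901 (a MEK1/2 inhibitor, 1 µM). Endoderm cultures of both genotypes (3 libraries each) were adherent cells given 100 ng/ml Activin A with 3 µM CHIR99021 at 24 h and 72 h and collected at 120 h. Gastruloids were taken as 2 libraries per group at 96 h and again at 120 h: those treated with Activin A came from both genotypes, and those labelled Chiron from wild type only. The labels give no doses for them and call the gastruloid and endoderm samples mixed cells. The labels name no clone and no separate cultures, so genotype and cell line cannot be told apart, and p-values measure only the spread between these libraries. With no Hox-/- Chiron gastruloids, the genotype effect was measured under Activin A only.

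Levels are CPM, a gene's count per M (mega) of the library's counts, and levels of different genes are compared only as FPKM, which also scales by transcript length. Totals ran from 9.11 to 28.8 M counts, so that 1 count was worth 0.0347 to 0.11 CPM. The 96 h gastruloid libraries were deeper than those at 120 h, and time and depth go together. The 39 Hox genes summed to 1170 to 1190 CPM in wild-type Activin A gastruloids at 120 h and to 63.8 to 69.5 CPM in Hox-/- ones. At 96 h those sums were 625 to 660 and 102 to 104 CPM. In mES cells they were 30.4 to 35.7 and 0.448 to 1.34 CPM, and in endoderm cultures 828 to 877 and 22.5 to 28.6 CPM. A list of 9 pluripotency genes summed to 6040 to 6070 CPM in wild-type mES cells and 5860 to 5900 CPM in Hox-/- ones. A list of 11 definitive endoderm genes summed to 1270 to 1280 CPM in wild-type endoderm cultures and 752 to 804 CPM in Hox-/- ones. In bulk libraries fewer cells of a type and less RNA per cell cannot be told apart.

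The sequences around the start sites of 3 of these genes are shown, because Olig2 and Nkx6-1 are the ventral genes and Pax7 the dorsal gene on which the comparisons turn. Each window holds 250 bases before and 50 bases after a RefSeq start on GRCm38.p6, read 5′ to 3′ on the gene's strand. Capitals mark CpG dinucleotides. The windows lie at chr16:91225300-91225599 on the plus strand (Olig2), chr5:101664662-101664961 on the minus strand (Nkx6-1) and chr4:139832919-139833218 on the minus strand (Pax7).
Olig2: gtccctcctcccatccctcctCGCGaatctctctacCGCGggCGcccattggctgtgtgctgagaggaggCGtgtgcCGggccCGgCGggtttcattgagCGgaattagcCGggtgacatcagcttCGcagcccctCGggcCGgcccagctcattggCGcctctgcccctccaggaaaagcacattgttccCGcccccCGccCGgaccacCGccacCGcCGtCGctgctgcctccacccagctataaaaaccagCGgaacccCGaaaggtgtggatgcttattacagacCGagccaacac
Nkx6-1: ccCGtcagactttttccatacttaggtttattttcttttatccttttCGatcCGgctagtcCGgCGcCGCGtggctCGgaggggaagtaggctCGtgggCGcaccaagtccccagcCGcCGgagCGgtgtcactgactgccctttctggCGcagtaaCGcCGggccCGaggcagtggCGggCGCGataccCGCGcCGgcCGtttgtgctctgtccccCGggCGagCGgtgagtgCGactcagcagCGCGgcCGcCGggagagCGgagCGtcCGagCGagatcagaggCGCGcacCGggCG
Pax7: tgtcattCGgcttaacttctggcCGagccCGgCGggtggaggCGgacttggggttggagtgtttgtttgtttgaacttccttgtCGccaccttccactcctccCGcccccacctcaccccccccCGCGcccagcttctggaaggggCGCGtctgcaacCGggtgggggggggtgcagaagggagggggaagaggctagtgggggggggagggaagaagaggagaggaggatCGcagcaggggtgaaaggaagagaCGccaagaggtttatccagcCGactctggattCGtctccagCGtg

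Of the 10 members, 9 had a window in the table, and Pax6 had 2 windows. All 10 of these windows were richer in CpG than the median of 7 over 32851 windows of the same length, from 14 in Irx3 to 40 in Nkx6-1. As many as 40 CpG occurred in 3.91% of all windows, the 25 of Olig2 in 18.4% and the 17 of Pax7 in 31.4%. Motifs were searched on both strands. ACCACCC, the core of a GLI site, and TAATTA, a homeodomain core, had no match in any of these windows and occurred in 4.61% and 5.29% of all windows. ATTGTT, a SOX core, matched once, 67 bases before the Olig2 start, and occurred in 10.7% of all windows. TGATNNAT, a HOX-PBX core, matched once, 203 bases before the Nkx6-2 start, and occurred in 8.85% of all windows.

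On the mm10 build, Sox1 (ENSMUSG00000096014) lies at chr8:12395295-12400126, Pax6 (ENSMUSG00000027168) at chr2:105668900-105697364, Irx3 (ENSMUSG00000031734) at chr8:91798525-91802067 and Nkx2-2 (ENSMUSG00000027434) at chr2:147177546-147186404. Each of these 4 genes overlaps another annotated gene in the tables, namely Sox1ot and Gm25239, Pax6os1, Irx3os and Nkx2-2os. Sox1ot and Gm25239 lie on the strand of Sox1, so counting by strand would not part them from it. Pax6os1, Irx3os and Nkx2-2os lie on the strand opposite to their genes, and the sources used here do not say whether counting used strand. Reads from these pairs may be shared and the 4 counts are less certain. The overlapping transcripts were low: in wild-type Activin A gastruloids at 120 h Sox1ot reached 2.4 CPM and Irx3os 2.99 CPM. The other 6 members are Sox3 (chrX:60891366-60893430), Pax7 (chr4:139737062-139833528), Dbx1 (chr7:49631499-49636849), Olig2 (chr16:91225457-91228677), Nkx6-1 (chr5:101658139-101664996) and Nkx6-2 (chr7:139581220-139582790).

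**Figure D1:**
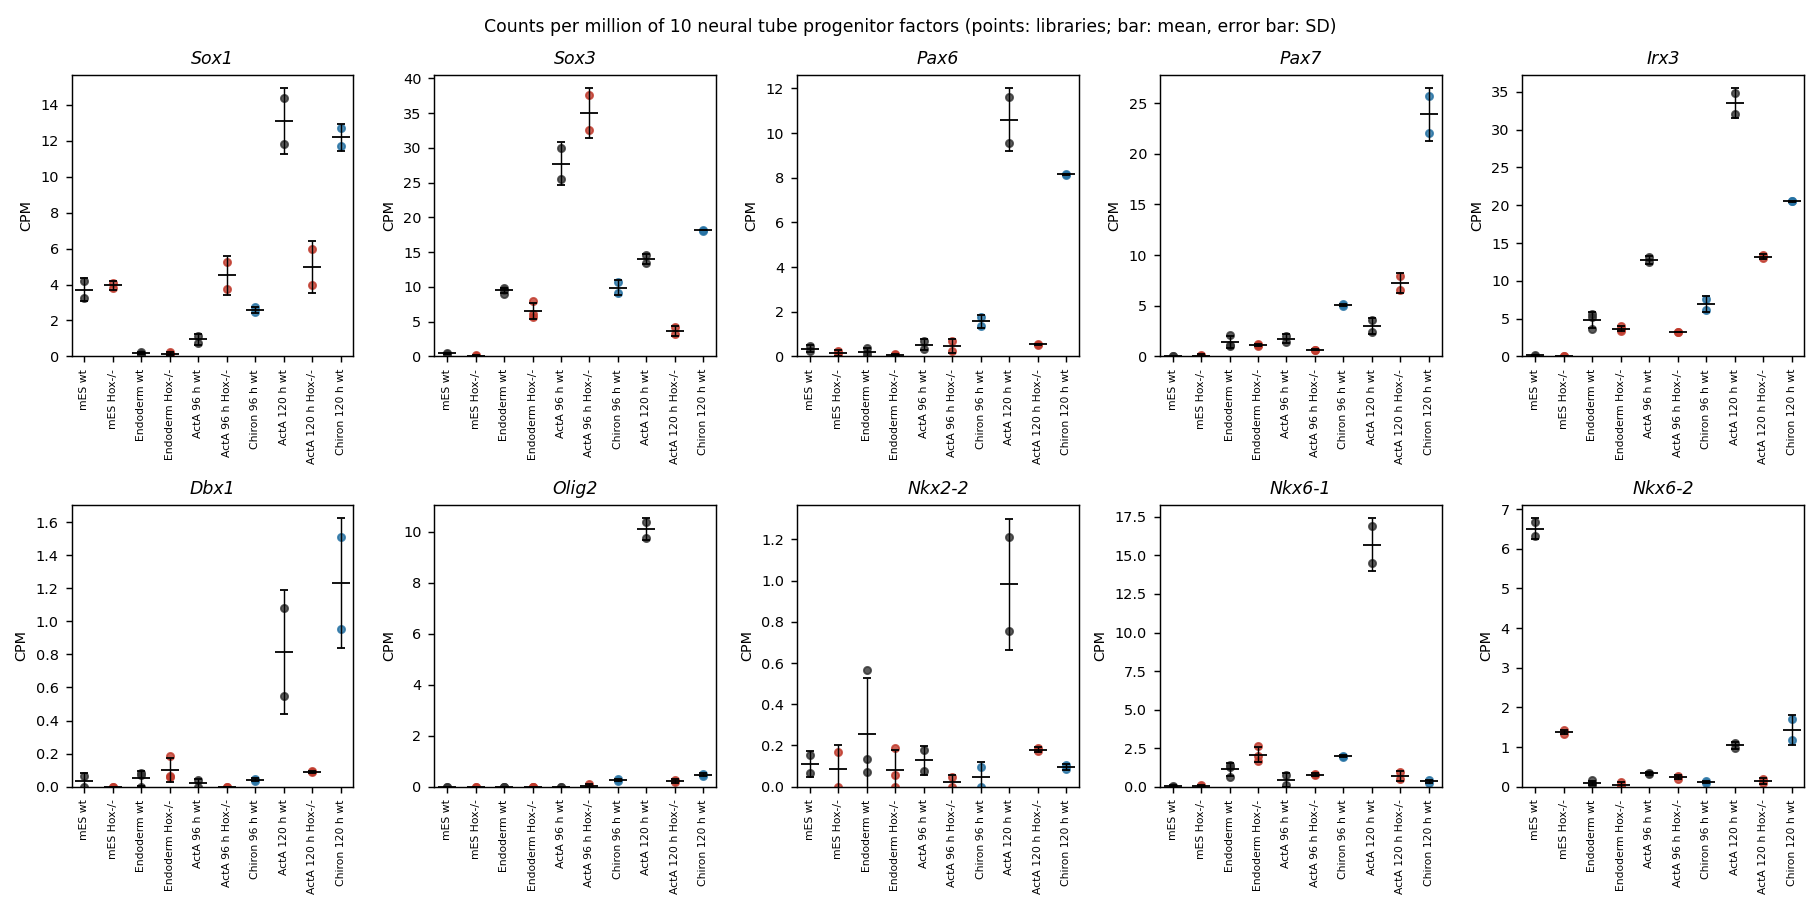
CPM (vertical axes, starting at 0, with a scale of their own in each panel) of the 10 factors in the 22 libraries of the 10 groups; points are libraries, horizontal bars means and error bars SD, with wild-type mES, endoderm and Activin A groups in black, Chiron in blue and Hox-/- in red. Olig2 and Nkx6-1 stand near 10 and 15 CPM in wild-type Activin A gastruloids at 120 h and below 3 CPM in the rest, Pax7 is highest in Chiron gastruloids at 120 h, and Nkx6-2 is highest in wild-type mES cells.

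In undifferentiated mES cells the set was nearly silent apart from Sox1 and Nkx6-2. Sox1, an HMG-box factor of neural progenitors, measured 4.18 and 3.26 CPM in the wild-type libraries and 4.11 and 3.78 CPM in the Hox-/- libraries, and the genotypes overlapped. Nkx6-2, a ventral homeodomain repressor, measured 6.31 and 6.68 CPM in wild type and 1.42 and 1.34 CPM in Hox-/-, and the genotypes stood apart. Nkx6-2 was 4.67-fold lower in Hox-/- mES cells (log2 fold change -2.22, SE 0.241, edgeR quasi-likelihood adjusted p = 5.33e-09). These 2 members were the ones that passed the filter on low counts, and 1 was called, meaning an adjusted p under 0.05. Over the 13631 genes tested, 12.4% were called higher and 10.8% lower in Hox-/- mES cells. Olig2 had no count in any of the 4 libraries, and each of the other members had at most 7 counts in a library.

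Sox3, Pax7, Irx3 and Nkx6-1 were higher in wild-type endoderm cultures than in wild-type mES cells, and Sox1 and Nkx6-2 lower, so that 6 of 6 members tested were called. Each of these 6 passed the filter on low counts only through the cultures where it was high, so the count says little about the set. Over 16251 genes, 41.6% were called higher and 38.3% lower in that comparison. Sox3 stood at 9.57, 9.04 and 9.85 CPM in the 3 wild-type endoderm libraries, 20-fold above its mES level (adjusted p = 2.85e-11 by edgeR). Sox1 fell to 0.243, 0.132 and 0.146 CPM, 22.8-fold below (adjusted p = 1.08e-09 by edgeR). Nkx6-1 stood at 1.38, 0.66 and 1.31 CPM against a single count in the 2 mES libraries, a ratio of 30.5 with an exact 95% counting interval of 5.2 to 1230. Pax7, with 57 counts against 2, gave a ratio of 19.3 and an interval of 5.11 to 163. These intervals cover counting error only, since they pool the counts of each group's libraries and leave out the spread between libraries. The reads also carry no molecular identifiers in the tables.

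In the endoderm cultures 4 members passed the filter: Sox3 was called lower and Nkx6-1 higher in Hox-/-. Of 14975 genes tested, 23.1% were called higher and 23.1% lower. Sox3 measured 7.9, 6.03 and 5.73 CPM in the Hox-/- libraries, all below the 3 wild-type ones, with a log2 fold change of -0.52 (SE 0.134, edgeR adjusted p = 0.00595). Nkx6-1, a factor of ventral progenitors and of pancreatic progenitors and beta cells, measured 2.61, 1.97 and 1.64 CPM in Hox-/-, above all 3 wild-type libraries, with a log2 fold change of 0.93 (SE 0.307, adjusted p = 0.0233). That call was lost without the second wild-type library (0.63, adjusted p = 0.126), without the first Hox-/- library (0.73, adjusted p = 0.0884) and with DESeq2 (adjusted p = 0.084). Irx3, a homeodomain factor of intermediate progenitors, measured 3.57, 5.21 and 5.62 CPM in wild type and 3.98, 3.32 and 3.65 CPM in Hox-/- (log2 fold change -0.39, adjusted p = 0.0973 by edgeR), and was called without the first wild-type library (-0.57, adjusted p = 0.0175). Pax7 did not pass the test (-0.30, adjusted p = 0.463).

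The wild-type Activin A gastruloids gained Olig2 and Nkx6-1 between 96 h and 120 h. Olig2, the basic helix-loop-helix factor of motor neuron progenitors, had no count in either 96 h library and stood at 10.4 and 9.77 CPM (96 and 89 counts) at 120 h, which is at least 162-fold higher against a floor of 3 counts over the group (adjusted p = 1.15e-22 by edgeR). Nkx6-1 went from 0.133 and 0.775 CPM to 14.5 and 16.9 CPM, a 30.8-fold rise (log2 fold change 4.95, SE 0.258). The 2 Nkx6-1 libraries at 96 h differed from each other by 3 against 20 counts. The Nkx6-1 log2 fold change was 4.24 without the first of them and 6.71 without the second. Nkx2-2, the marker of the most ventral neuronal progenitors, stayed scarce: 0.178 and 0.0775 CPM became 0.757 and 1.21 CPM (7 and 11 counts), a 7.09-fold rise with an adjusted p of 9.4e-05 by edgeR (log2 fold change 2.83, and 3.44 without the first 96 h library).

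The shared and intermediate factors rose over the same interval, with Sox3 as the exception. Sox1 rose 13.2-fold, from 1.16 and 0.736 CPM to 11.8 and 14.4 CPM. Pax6, a paired-box factor of intermediate and ventral progenitors, rose 19.1-fold, from 0.711 and 0.349 CPM to 11.6 and 9.55 CPM. Irx3 rose 2.47-fold, from 12.5 and 13.2 CPM to 34.9 and 32.1 CPM. Sox3 fell 2.07-fold, from 29.9 and 25.5 CPM to 14.6 and 13.5 CPM. The largest of these 4 adjusted p-values was 3.11e-12 (edgeR). Dbx1, which marks the progenitors of intermediate interneurons, had 1 count at 96 h and 15 at 120 h and was not tested.

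Pax7 and Nkx6-2 rose less firmly. Pax7 moved from 2.04 and 1.43 CPM to 3.57 and 2.42 CPM, with a log2 fold change of 0.72 (adjusted p = 0.0177 by edgeR). The Pax7 call was lost with counts thinned to the smallest library (adjusted p = 0.0809), with DESeq2 (0.141), without the second 96 h library (log2 fold change 0.47) and without the first 120 h library (0.41). Nkx6-2 moved from 0.355 and 0.31 CPM to 0.973 and 1.1 CPM, a 2.92-fold rise (adjusted p = 0.00542) that was lost with DESeq2 (0.149) and without the second library of either time (0.0516 and 0.0594). Of the 9 members tested, 8 were called higher and 1 lower with time, beside 37.2% and 37.8% of all 16831 genes. Olig2, Pax6, Nkx2-2 and Nkx6-2 passed the filter only through the group where they were high, so the count itself says little about the set.

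Hox-/- Activin A gastruloids took another course over these 24 h. Sox3 fell 9.54-fold, from 32.5 and 37.6 CPM to 3.19 and 4.21 CPM (log2 fold change -3.25, SE 0.138, adjusted p = 1.56e-26 by edgeR). Pax7 rose 11.2-fold, from 0.608 and 0.669 CPM to 6.55 and 7.95 CPM (3.48, SE 0.278, adjusted p = 8.91e-16 by edgeR). Irx3 rose 4.06-fold, from 3.23 and 3.21 CPM to 13.4 and 13 CPM. The other 6 members tested, the 4 ventral ones among them, did not pass the test, though Olig2 was called higher at 120 h without the first 96 h library (adjusted p = 0.0465 by edgeR). Sox1 stood at 3.74 and 5.28 CPM at 96 h and at 3.97 and 5.99 CPM at 120 h, with a log2 fold change of 0.15 and a 95% interval of -0.27 to 0.57. For Nkx6-1 the change was -0.17 with an interval of -1.18 to 0.85. In all, 2 members were called higher and 1 lower, beside 34.9% and 37.6% of all genes.

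Genotype changed the shared factors in opposite directions at the 2 times. At 96 h Sox1 was 4.86-fold higher in Hox-/- Activin A gastruloids than in wild type (2.28 on the log2 scale, SE 0.251, adjusted p = 1.36e-10 by edgeR), and at 120 h it was 2.45-fold lower (-1.29, SE 0.192, adjusted p = 1.26e-07). Sox3 was 1.31-fold higher at 96 h (0.39, SE 0.0752, adjusted p = 4.02e-05) and 3.53-fold lower at 120 h (-1.82, SE 0.185, adjusted p = 5.99e-12). The 96 h difference in Sox3 was not called with limma on log2(FPKM + 1) (0.31, adjusted p = 0.145). The differences between the 2 times were themselves called, at -3.57 (SE 0.316) for Sox1 and -2.21 (SE 0.199) for Sox3 on the log2 scale. Sox2, the third member of this gene group and one of the genes listed for comparison, was also higher at 96 h (0.73, adjusted p = 1.34e-14 by edgeR) and lower at 120 h (-1.26, 8.86e-17), with means of 31.6 and 50.2 CPM in wild type and Hox-/- at 96 h and of 43.1 and 16.6 CPM at 120 h.

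Pax7 and the intermediate factors divided. Pax7 was 2.6-fold lower in Hox-/- at 96 h (-1.38 on the log2 scale, SE 0.335, adjusted p = 8.1e-04 by edgeR) and 2.6-fold higher at 120 h (1.38, SE 0.237, adjusted p = 2.48e-06), a difference between times of 2.76 (SE 0.409). Irx3 was lower at both times, 3.85-fold at 96 h and 2.34-fold at 120 h, and the difference between times was 0.72 (SE 0.181, adjusted p = 0.00121). Pax6 was close in the 2 genotypes at 96 h, with 0.234 and 0.669 CPM in Hox-/- (-0.27, 95% interval -1.27 to 0.74). At 120 h Pax6 stood at 0.517 and 0.561 CPM in Hox-/-, 17.9-fold below wild type (-4.16, SE 0.328, adjusted p = 1.66e-15 by edgeR). Dbx1 had 2 counts in Hox-/- at 120 h against 15 in wild type, a ratio of 9.11 with an exact counting interval of 2.12 to 82.1, and was not tested.

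The ventral factors did not appear in Hox-/- gastruloids at 120 h at their wild-type levels. Olig2 measured 0.172 and 0.281 CPM (2 and 3 counts), 40.2-fold below wild type (log2 fold change -5.33, SE 0.382, adjusted p = 9.29e-17 by edgeR). Nkx6-1 measured 0.948 and 0.468 CPM, 20-fold below wild type (-4.32, SE 0.294, adjusted p = 8.85e-18 by edgeR; -4.93 without the first Hox-/- library). Nkx2-2 measured 0.172 and 0.187 CPM, or 4 counts against 18 (-2.29, SE 0.713, adjusted p = 0.00603). The Nkx2-2 call was lost with DESeq2 (adjusted p = 0.141) and without the second wild-type library (0.108) or either Hox-/- library (0.0689 and 0.0509). Nkx6-2 had 3 counts against 19, a ratio of 7.69 with an exact counting interval of 2.26 to 40.6 (adjusted p = 0.00129 by edgeR, 0.051 with DESeq2).

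At 96 h none of the 4 ventral factors passed the test between genotypes. Nkx6-1 stood at 0.842 and 0.736 CPM in Hox-/-, overlapping the wild-type libraries (log2 fold change 0.79, adjusted p = 0.168 by edgeR), and was called without the second wild-type library (2.55, adjusted p = 0.0026). For Nkx6-1 the genotype effect at 120 h differed from that at 96 h by -5.11 on the log2 scale (SE 0.603, adjusted p = 1.07e-09 by edgeR), and by -4.41 and -6.88 without the first and the second wild-type library at 96 h. The same test gave an adjusted p of 0.00159 for Olig2, which had no count in wild type and 2 counts in Hox-/- at 96 h, and this call was lost without the first Hox-/- library at 96 h. Nkx6-2 missed the threshold (adjusted p = 0.0534, but 0.047 with scaling by total counts alone) and Nkx2-2 gave 0.946.

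Over the whole set at 96 h, 2 of the 9 members tested were called higher and 2 lower in Hox-/-, beside 22.2% and 16.7% of 16831 genes. At 120 h 1 was higher and 8 were lower, beside 24.9% and 25.5%. Olig2, Pax6, Nkx2-2 and Nkx6-2 passed the filter only through wild type at 120 h, where they were high. These counts are therefore no support for a change of the set. The genotype effect differed between times in 7 of 9 members, 2 positive and 5 negative, beside 18.7% and 20.2% of all genes, and this count has the same limit. With scaling by total counts alone, the calls that were higher in Hox-/- went from 57% to 42.5% of all calls at 96 h and from 49.4% to 34.6% at 120 h, and the median log2 fold change at 120 h from -0.02 to -0.13. No call of a member in these 2 genotype comparisons changed with that scaling.

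**Figure D2:**
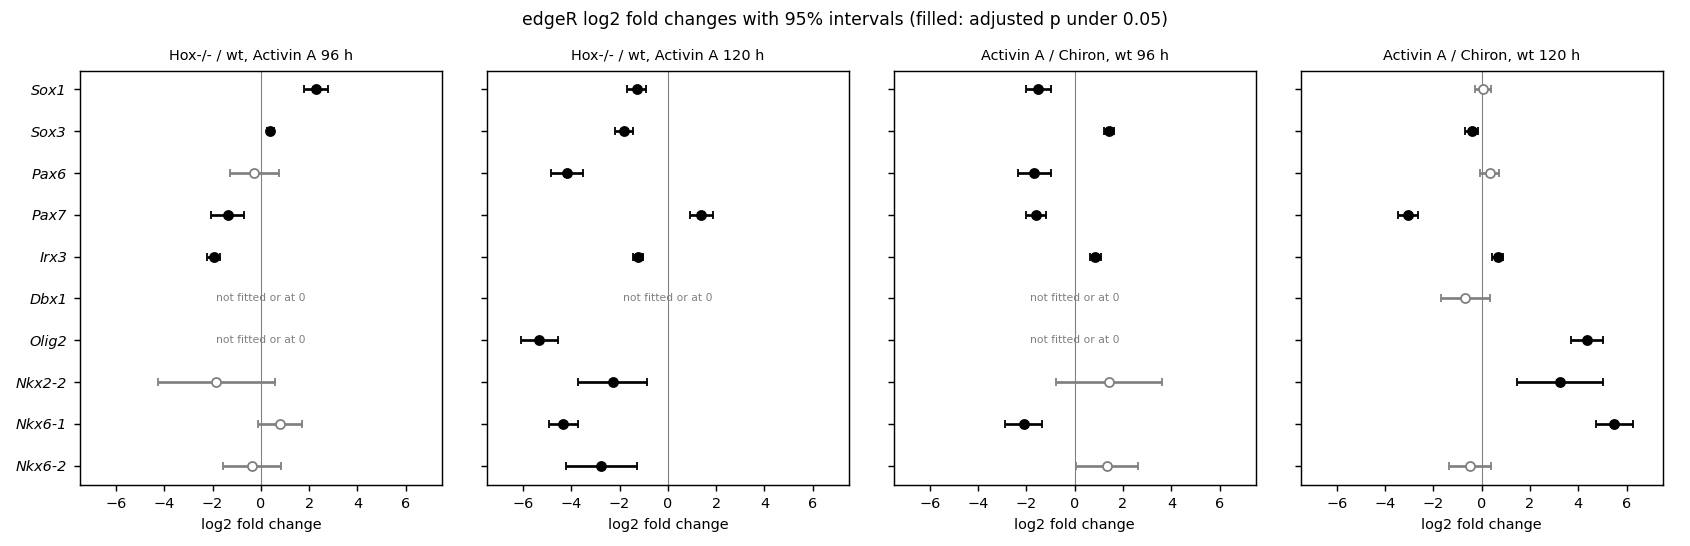
edgeR log2 fold changes (horizontal axes) of the 10 factors with 95% intervals in 4 comparisons; filled points have an adjusted p under 0.05, and genes that were not tested, at 0 in a group or at 3 counts or fewer in both are named as such. At 120 h the Hox-/- gastruloids lie to the left for 8 factors and to the right for Pax7, and against Chiron the wild-type Activin A gastruloids lie to the right for Olig2, Nkx2-2 and Nkx6-1 and to the left for Pax7.

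In wild-type gastruloids at 120 h, Pax7 was higher in Chiron cultures and Olig2 and Nkx6-1 were higher in Activin A cultures. Pax7 measured 25.7 and 22.1 CPM in Chiron gastruloids, 8.29-fold above Activin A gastruloids (log2 fold change of Activin A against Chiron -3.05, SE 0.191, adjusted p = 5.61e-12 by edgeR). Olig2 measured 0.503 and 0.424 CPM there, and was 20.5-fold higher under Activin A (4.35, SE 0.321, adjusted p = 1.82e-10 by edgeR). Nkx6-1 measured 0.251 and 0.424 CPM in Chiron gastruloids and was 45.2-fold higher under Activin A (5.50, SE 0.38, adjusted p = 3.31e-11 by edgeR). No library of one treatment reached the range of the other for these 3 genes. The same held for Pax6 and Nkx6-2, which were not called, so standing apart alone is no sign of a difference. The share of all genes whose libraries stand apart in this way was not computed.

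Sox1 and Pax6, which are not tied to one end of the axis, were near each other in the 2 treatments at 120 h. Sox1 measured 11.7 and 12.7 CPM in Chiron gastruloids, and the difference was 0.06 on the log2 scale with a 95% interval of -0.27 to 0.38. Pax6 measured 8.13 and 8.16 CPM, with a difference of 0.32 and an interval of -0.06 to 0.71. Irx3 was 1.58-fold higher under Activin A, against 20.5 and 20.5 CPM in Chiron gastruloids (adjusted p = 2.81e-05 by edgeR). Sox3 was 1.34-fold lower under Activin A, against 18.2 and 18.1 CPM (adjusted p = 0.0121), a call lost with DESeq2 (0.058), without the first Chiron library (0.0706) and without the second Activin A library (0.101).

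Nkx2-2, Dbx1 and Nkx6-2 complete the comparison at 120 h. Nkx2-2 had 18 counts under Activin A against 2 under Chiron, a ratio of 10.5 with an exact counting interval of 2.51 to 93.1 (adjusted p = 0.00383 by edgeR). The Nkx2-2 call was lost with DESeq2 (0.0736), without the first Chiron library (0.0605) and without the second Activin A library (0.0628). Dbx1 measured 1.51 and 0.954 CPM under Chiron and 1.08 and 0.549 CPM under Activin A, and the treatments overlapped. Nkx6-2 measured 1.17 and 1.7 CPM under Chiron and was not called (-0.49, 95% interval -1.36 to 0.38). Of the 10 members tested, 4 were higher and 2 lower under Activin A, beside 20.3% and 21.6% of 17305 genes. Olig2 and Nkx2-2, among the 4 higher, passed the filter only through wild-type Activin A gastruloids at 120 h, where they were high. This count therefore says little about the set.

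The picture at 96 h was another one. Chiron gastruloids held more Pax7 (4.96 and 5.14 CPM), Nkx6-1 (1.95 and 2.01 CPM), Sox1 (2.73 and 2.46 CPM) and Pax6 (1.36 and 1.77 CPM), by 3.06-, 4.31-, 2.87- and 3.18-fold, with adjusted p-values of at most 1.17e-04 by edgeR. The Nkx6-1 value depends on the Activin A libraries, with a log2 fold change of -2.11 in all, -1.37 without the first and -3.85 without the second. Olig2 had 13 counts there and none under Activin A, at least 4.24-fold higher in Chiron gastruloids (adjusted p = 4.9e-04 by edgeR), a call lost with limma on log2(FPKM + 1) (0.235). Sox3 and Irx3 were higher under Activin A, 2.65-fold and 1.81-fold. In all, 2 members were higher and 5 lower under Activin A at 96 h, beside 31.3% and 30.2% of all genes.

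Nkx6-1 changed in opposite directions with time in the 2 treatments. In Chiron gastruloids it fell 6.38-fold between 96 h and 120 h (log2 fold change -2.67, SE 0.522, adjusted p = 1.11e-04 by edgeR), while it rose in wild-type Activin A gastruloids. The interaction of treatment and time was 7.61 on the log2 scale (SE 0.553, adjusted p = 1.04e-10 by edgeR), and 6.89 and 9.36 without the first and the second Activin A library at 96 h. Pax7 rose 4.41-fold in Chiron gastruloids, Sox1 4.37-fold, Pax6 4.73-fold, Irx3 2.79-fold and Sox3 1.69-fold. Nkx6-2 rose 10.2-fold, and Dbx1 had 27 counts at 120 h against 2 at 96 h, a ratio of 31.2 with an exact counting interval of 7.84 to 271. With 7 members higher and 1 lower over time, the shares of all genes called were 28.5% and 33.2%. Dbx1 and Nkx6-2 passed the filter only through 120 h libraries, where they were high, so that count says little about the set. The treatment effect differed between times for 6 of 10 members, 4 positive and 2 negative, beside 21.7% and 18% of all genes. Olig2, among the positive ones, passed the filter only through wild-type Activin A gastruloids at 120 h, where it was high.

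**Figure D3:**
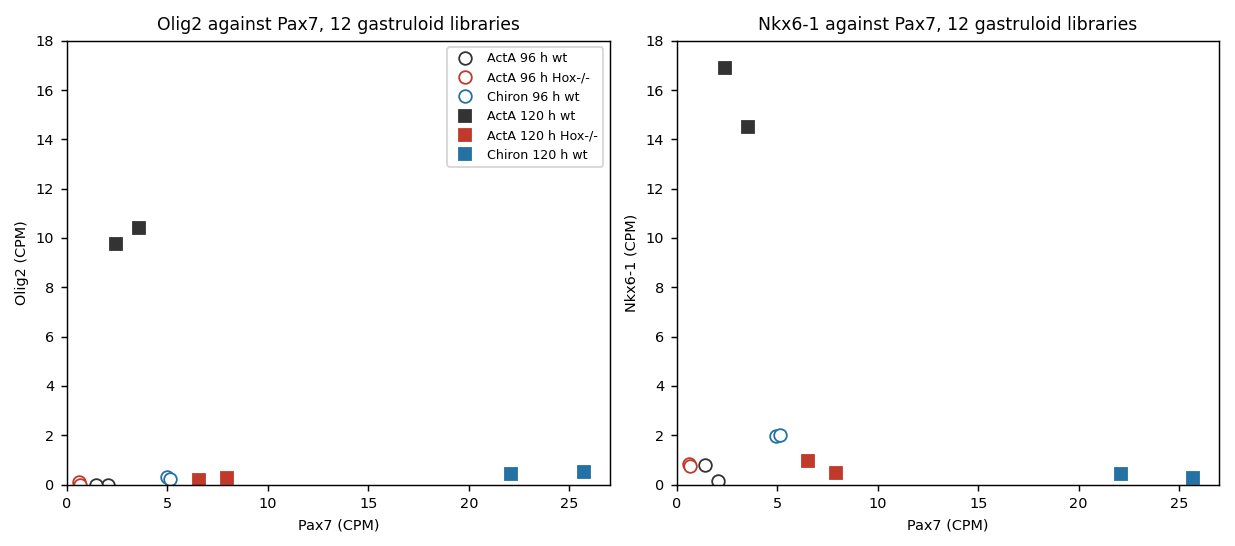
Olig2 (left, vertical axis, CPM) and Nkx6-1 (right, vertical axis, CPM) against Pax7 (horizontal axes, CPM) in the 12 gastruloid libraries; open circles are 96 h and filled squares 120 h, with wild-type Activin A in black, Hox-/- Activin A in red and wild-type Chiron in blue. The 2 wild-type Activin A libraries at 120 h hold 9.77 and 10.4 CPM of Olig2 with 2.42 and 3.57 CPM of Pax7, and the 2 Chiron libraries at 120 h hold 22.1 and 25.7 CPM of Pax7 with 0.424 and 0.503 CPM of Olig2.

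Per transcript length, the order of the members differed between the 3 groups at 120 h. In wild-type Activin A gastruloids Irx3 led with 11.4 ± 0.861 FPKM (SD, n = 2), followed by Sox3 with 6.29 ± 0.407 and Nkx6-1 with 4.33 ± 0.386. Olig2 (3.33 ± 0.142), Pax6 (3.25 ± 0.205) and Sox1 (2.39 ± 0.328) came next, and the first 2 of these lie within each other's spread. Nkx6-2, Nkx2-2, Pax7 and Dbx1 were all below 1 FPKM. In Chiron gastruloids Sox3 (8.24 ± 0.0115) led, ahead of Irx3 (7.07 ± 0.0171), Pax7 (3.57 ± 0.388), Pax6 (2.83 ± 0.265) and Sox1 (2.3 ± 0.113), and Olig2 and Nkx6-1 were at 0.135 and 0.0983 FPKM. In Hox-/- Activin A gastruloids Irx3 (4.76 ± 0.216) led, ahead of Sox3 (1.71 ± 0.37), Pax7 (1.07 ± 0.142) and Sox1 (0.962 ± 0.261), of which the last 2 lie within each other's spread. Both endoderm genotypes were led by Sox3 (4.62 ± 0.193 and 3.24 ± 0.581, n = 3) and wild-type mES cells by Nkx6-2 (5.07 ± 0.292).

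At 120 h Shh and the readouts of hedgehog signalling were highest in the group with the most Olig2 and Nkx6-1. Shh, the ventral ligand, which is named after its values were seen, measured 13.4 and 14.5 CPM in wild-type Activin A gastruloids at 120 h, 0.259 and 0.468 CPM in Hox-/- ones and 0 and 0.251 CPM in Chiron gastruloids. Gli1, the transcription factor whose own transcription reports hedgehog activity, averaged 254, 16 and 7.65 CPM in these groups and was 14.7-fold lower in Hox-/- (log2 fold change -3.88, SE 0.0714, adjusted p = 2.53e-41 by edgeR). Ptch1, the receptor and a target of the pathway, averaged 419, 58.7 and 49.5 CPM and was 6.59-fold lower in Hox-/-. Foxa2, a forkhead factor of floor plate, notochord and endoderm, averaged 63.1, 1.93 and 0.642 CPM and was 30.2-fold lower in Hox-/- (adjusted p = 5.55e-33 by edgeR). At 96 h the treatments did not line up in this way. Shh, Gli1 and Ptch1 were then also higher in wild-type Activin A than in Chiron gastruloids (means of 2.39 against 0.0694, 29.9 against 7.29 and 79.5 against 59.3 CPM, adjusted p of at most 9.75e-06 by edgeR), while Olig2 and Nkx6-1 were higher in Chiron gastruloids. Endoderm cultures averaged 26.3 CPM of Gli1 and 94.7 CPM of Ptch1 in wild type and 38.6 and 116 CPM in Hox-/-, with no count of Olig2. Foxa2 was already high at 96 h in wild-type Activin A gastruloids, with 80.8 CPM against 9.6 CPM in Hox-/- and 1.59 CPM under Chiron. Olig2 had no count in wild-type Activin A gastruloids at that time. The part of hedgehog signalling in the levels of Olig2 and Nkx6-1 was not tested.

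Axin2, a target of Wnt signalling, went the other way, averaging 50.3 CPM in wild-type Activin A gastruloids at 120 h and 171 CPM in Hox-/- ones, a log2 fold change of 1.88. The list of 26 patterning signals and readouts had 25 members tested, of which 5 were higher and 16 lower in Hox-/- at 120 h. Of all genes, 24.9% were called higher and 25.5% lower. The median log2 fold change of the list was -0.94 beside -0.02 over all genes. Against Chiron at 120 h, 16 of the 25 were higher under Activin A and 8 lower, beside 20.3% and 21.6% of all genes. The median was 1.70 beside -0.01 over all genes. This list mixes ventral, dorsal and retinoid genes, and Cyp26a1, an enzyme that clears retinoic acid, was among its leading genes, averaging 135 CPM under Activin A and 28 CPM under Chiron.

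**Figure D4:**
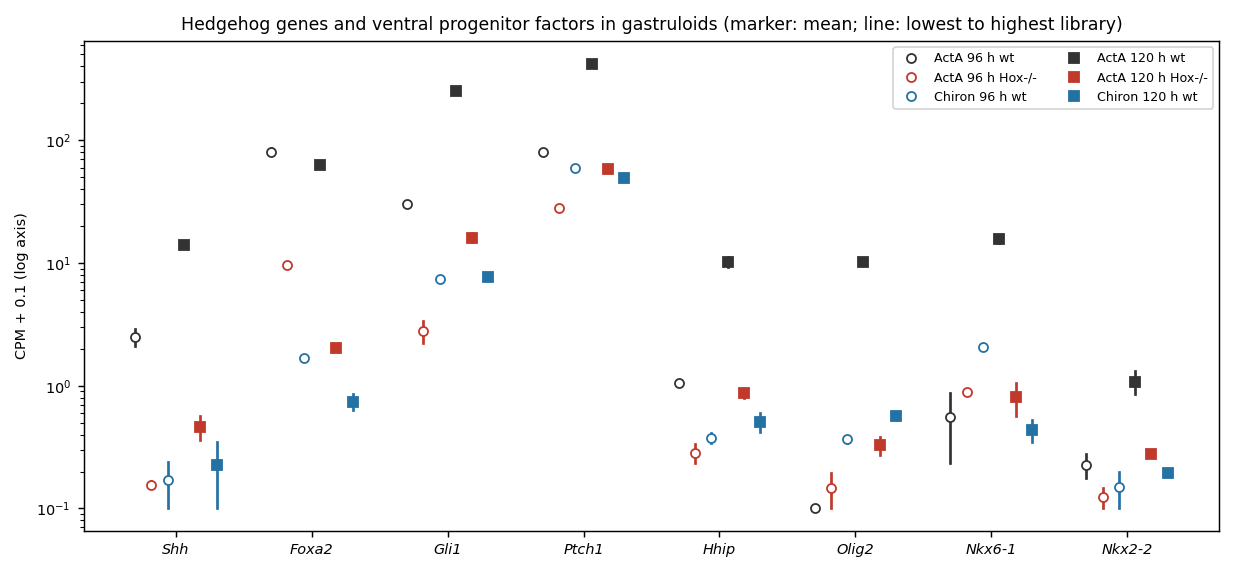
Mean CPM + 0.1 (vertical log axis) of hedgehog pathway genes, Foxa2 and 3 ventral factors in the 6 gastruloid groups; lines run from the lowest to the highest library, open circles are 96 h and filled squares 120 h. Wild-type Activin A gastruloids at 120 h (black squares) are the highest group for every gene shown except Foxa2, where the same cultures at 96 h are higher.

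Other progenitor factors moved less uniformly. Of 29 such genes, 19 were tested. In Hox-/- Activin A gastruloids at 120 h 5 were higher and 9 lower, beside 24.9% and 25.5% of all genes. The median log2 fold change was -0.83 (-0.71 with genes at 0 set to their bound) beside -0.02 over all genes. Sox21, a SoxB2 factor of neural progenitors, was 22.9-fold lower, with means of 15.7 and 0.636 CPM. Zic2, a zinc-finger factor of dorsal neural tube and early neural plate, was 2.54-fold higher, with means of 98.4 and 231 CPM. At 96 h 5 of the 19 were higher and 7 lower, beside 22.2% and 16.7% of all genes. Against Chiron at 120 h, 7 of 19 were higher and 8 lower under Activin A, beside 20.3% and 21.6% of all genes, with a median of -0.04. Zic1 was 11.2-fold lower under Activin A (1.75 and 19 CPM). Lmx1a went the other way, with 123 counts under Activin A against 3 under Chiron.

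Markers of other cell types that could hold these genes moved with the same comparisons. Of all genes, 24.9% were called higher and 25.5% lower in Hox-/- Activin A gastruloids at 120 h. Anterior neural genes were mostly lower in Hox-/- at 120 h (2 of 10 higher, 8 lower, median -2.96), and their summed level was 138 to 148 CPM in wild type, 20.4 to 21.3 CPM in Hox-/- and 11.6 to 11.7 CPM in Chiron gastruloids. Otx2, a forebrain and midbrain factor that endoderm also uses, averaged 109, 8.1 and 3.11 CPM in these groups. Postmitotic neuron genes were higher for 3 and lower for 8 of 14 tested in Hox-/- at 120 h, with summed levels of 190 to 196, 118 to 120 and 74.4 to 75.4 CPM. Isl1, which motor neurons share with endoderm and other tissues, averaged 29.8, 8.31 and 0.79 CPM.

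Definitive endoderm genes were lower for 9 of 11 in Hox-/- at 120 h and higher for none, beside 25.5% and 24.9% of all genes. Their median was -3.80, with sums of 1070 to 1080 CPM in wild type, 192 to 197 CPM in Hox-/- and 99.6 to 106 CPM in Chiron gastruloids. Pancreatic genes, the other setting in which Nkx6-1, Nkx2-2 and Pax6 act, had 6 of 13 tested, with 3 lower and none higher. Their sums were 64 to 72.6, 27.2 to 27.4 and 15.3 to 19.8 CPM. Insulin 1 and glucagon (Ins1, Gcg) had no count in these 3 groups, and Pdx1, the defining factor of pancreatic progenitors, had 8 counts in wild-type Activin A gastruloids, 1 in Hox-/- and 3 in Chiron gastruloids. The part of endoderm in the changes of Nkx6-1, Nkx2-2 and Pax6 was not tested.

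Somite and dermomyotome genes cover the tissue where Pax7 also acts. In Hox-/- at 120 h 7 of 12 were higher and 2 lower, beside 24.9% and 25.5% of all genes. The list summed to 540 to 544 CPM in wild type, 912 to 918 CPM in Hox-/- and 979 to 1020 CPM in Chiron gastruloids. Neural crest genes were higher for 3 and lower for 1 of 6, with sums of 91.1 to 93.9, 143 to 143 and 130 to 132 CPM. Pax3, the paralogue of Pax7 in dorsal neural tube, crest and somite, averaged 43.3, 50.9 and 84.8 CPM. The part of these tissues in the level of Pax7 was not tested. Caudal progenitor genes were higher for 6 and lower for 4 of 11 tested, with a median of 0.17, and pluripotency genes higher for 1 and lower for 7 of 9, with sums of 127 to 127 CPM in wild type and 32.9 to 33.4 CPM in Hox-/-.

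The genes whose levels ran most closely with each member over the 12 gastruloid libraries were listed from 12449 candidates by the Pearson r of log2(CPM + 0.5). For Olig2 these were Kif12 (r = 0.974), Marchf8 (0.971) and Mapk11 (0.963), and for Nkx6-1 Dmbx1 (0.95), Phf21b (0.939) and Hapln3 (0.936). Irx5, the neighbour of Irx3 in the same gene cluster and of the same homeodomain family, ranked second for Irx3 with 0.972, beside Vstm2b (0.972). Mmgt2 led for Pax6 (0.988), Mrpl19 for Pax7 (0.979), Ccng2 for Sox1 (0.957) and Sat1 for Sox3 (0.985). Among the members, Sox1 and Pax6 had an r of 0.787 and Pax7 and Olig2 of 0.066. The 12 libraries form 6 groups of 2 and share depth differences, so these values describe the libraries and carry no test. Dbx1, Nkx2-2 and Nkx6-2 stayed below 5 CPM in every gastruloid group and were not ranked.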

How the data were processed

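Counts and FPKM were analysed for 22 poly(A)-selected libraries of a kit that keeps strand, per the labels' protocols. Reads were processed with cutadapt 1.16, STAR and Cufflinks 2.2.1 on mm10, per the submitters' processing notes; the counting tool and its strand setting are not given in the sources used here. The authors deposited whole-number counts per gene, with no normalization, and FPKM values, which scale fragments by transcript length and by the library's total. Symbols came from the FPKM tables by gene identifier. The 4 wild-type Activin A libraries are in both gastruloid tables with identical values and were counted once.

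Counts were tested with edgeR 4.0.16 (R 4.3.3): filterByExpr, TMM scaling, 1 coefficient per group, quasi-likelihood test, Benjamini-Hochberg adjustment over all genes tested, with calls at an adjusted p under 0.05. The mES and the endoderm tables were fitted on their own, each gastruloid table as 4 groups together, and endoderm against mES jointly, 12 comparisons in all. SE is the log2 fold change divided by the root of F. Comparisons under Activin A and those against Chiron share the wild-type Activin A libraries. Other lists name up to 3 called genes each with the smallest p whose libraries do not overlap; Shh, Sox2, Pax3 and the single pancreatic genes lie outside that rule and were named after their values were seen. The 3 genes most like a member were taken among genes with a group mean of at least 5 CPM. The members and lists were chosen with earlier results of these data known. Alternatives were RLE and total-count scaling, other filters, thinned counts, a replicate block, fits of only the 2 groups compared, DESeq2 1.42.0, limma 3.58.1 on log2(FPKM + 1) and log2(FPKM + 0.1), and each library left out. The test was checked on simulated counts. Samples with the same replicate number did not deviate together (r from -0.127 to 0.129).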

Additional observations from a re-analysis of the deposited data

Results flagged for a closer look

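Results stand here where an effect differed between 2 conditions by the edgeR interaction test, given as the log2 difference and its adjusted p. The effect of genotype in Activin A gastruloids differed between 96 h and 120 h for Sox1 (-3.57, adjusted p = 2.25e-13), Sox3 (-2.21, 4.24e-13), Pax6 (-3.9, 1.17e-05), Pax7 (2.76, 2.57e-07), Irx3 (0.72, 0.00121) and Nkx6-1 (-5.11, 1.07e-09). Sox1 and Sox3 were higher in Hox-/- at 96 h and lower at 120 h, and Pax7 did the reverse. For Olig2 the adjusted p was 0.00159, and its fitted difference is not a size because wild type at 96 h had no count, and the call was lost without the first Hox-/- library at 96 h. The Irx3 difference was not called with limma on log2(FPKM + 1) (0.26, adjusted p = 0.102). Without the first or the second Hox-/- library at 96 h the Pax6 difference was -4.58 or -3.09, and without the first Hox-/- library at 120 h the Nkx6-1 difference was -5.72.

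The effect of Activin A against Chiron in wild type differed between the times for Sox1 (1.58, adjusted p = 0.000171), Sox3 (-1.83, 3.88e-09), Pax6 (1.99, 0.000179), Pax7 (-1.44, 0.000565) and Nkx6-1 (7.61, 1.04e-10) by the same edgeR test. Nkx6-1 was lower under Activin A at 96 h (log2 fold change -2.11, and -1.37 or -3.85 without the first or the second Activin A library) and higher at 120 h (5.50), and Olig2 also turned from lower to higher (adjusted p = 3.15e-07). The Sox1 difference was not called with limma on log2(FPKM + 1) (0.39, adjusted p = 0.0846). Both sets of differences use the same 4 wild-type Activin A libraries, so they are not independent of each other. The 96 h libraries were deeper than those at 120 h, and with counts thinned to the smallest library 13 of these 13 differences were called (largest adjusted p 0.0417 by edgeR).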

How the results depend on the processing

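The number of members called stayed within 1.5 times of its value in all 12 comparisons with RLE size factors, total counts alone, other filters, thinned counts and fits of only the groups compared (where these could be made). With the replicate number as a block, 9 members were called between genotypes at 120 h, and the counts of the other 11 comparisons were also as without it. For genotype in endoderm cultures (2 members called), DESeq2 gave 1, limma on log2(FPKM + 1) gave 1, limma on log2(FPKM + 0.1) gave 1, and limma with no filter gave 0, and leaving out each library gave 1 to 3. For genotype in mES cells (1 called), limma on log2(FPKM + 1) with no filter gave 0. For genotype under Activin A at 96 h (4 called), limma on log2(FPKM + 1) gave 2, on log2(FPKM + 0.1) 2 and with no filter 1. The cause was not tested. Leaving out each library gave 4 to 5 calls at 96 h, 8 to 9 at 120 h, 4 to 6 for Activin A against Chiron at 120 h and 8 to 10 for time in wild-type Activin A gastruloids. No result of a member that was called, in the main fit or in the changed one, reversed its sign. Sign changes among results called in neither were not counted. The FPKM fits were not run for endoderm against mES, whose tables were normalized separately. With 2 libraries per group in most groups and 1 count worth up to 0.11 CPM, differences in Dbx1, Nkx2-2 and Nkx6-2 rest on few counts.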
